A study of Mus musculus with 22 samples.

Results

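Accessible chromatin was compared between KIT-positive spermatogonia and KIT-negative spermatogonia with medium MCAM, both sorted from testes after TERT, the catalytic subunit of telomerase, had been deleted. The comparison used 6 of the 22 ATAC-seq libraries of the series, chosen by their labels: 3 KIT-positive and 3 MCAM-medium. ATAC-seq cuts open DNA with the Tn5 transposase, so the count of reads over a peak measures how accessible that stretch is. All 6 came from C57BL/6 mice of 8 to 12 weeks injected with tamoxifen, and cells were sorted 7 days later. The sort gates were MCAM-Med:KIT+ for the KIT-positive libraries, which the labels call differentiating spermatogonia, and MCAM-Med:KIT- for the MCAM-medium libraries, which they call undifferentiated. The labelled genotype, TertCreER/+:Rosalsl-Tdtomato/+, puts a tamoxifen-dependent Cre at 1 Tert allele and a Cre-dependent tdTomato reporter at Rosa. It names no loxP-flanked Tert allele and is the same for the deleted libraries and for the controls, which the titles call heterozygous; titles alone separate them. Other populations are used here only beside this comparison: 3 deleted MCAM-high (KIT-negative), 3 control KIT-positive, 2 control MCAM-medium and 5 libraries of later germ cells (spermatocytes and round spermatids) from heterozygous mice. The age was 8 to 12 weeks for all of these. The spermatogonial ones were also sorted 7 days after tamoxifen, and no day after tamoxifen is given for the later germ cells.

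KIT is the receptor for stem cell factor and marks the step at which spermatogonia leave the undifferentiated pool, which holds the stem cells, and commit to a series of amplifying divisions that ends in meiosis. MCAM is an adhesion molecule used to sort undifferentiated spermatogonia. GDNF and FGF signals keep cells undifferentiated, and retinoic acid drives the change to the KIT-positive state. Accessibility at a gene's start usually accompanies transcription or its potential, whereas peaks far from gene starts include enhancers, which tend to differ more between cell states.

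The 3 KIT-positive libraries held 1155629, 1802877 and 1373694 reads in peaks, against 1552405, 1353976 and 1222372 in the 3 MCAM-medium libraries. Of the nonzero peak counts, 70.5% were even numbers in KIT-positive library 1 and 73.7% in MCAM-medium library 3. In the other compared libraries 48.8 to 52.9% were even, so reads may not have been counted alike in all libraries, which was not tested. Libraries of 1 population correlated at 0.777 to 0.840 (Pearson r of log2 CPM across peaks, where CPM is the scaled read count of a peak relative to its library total) and libraries of different populations at 0.690 to 0.741. Whether the numbered libraries are separate animals is not stated in the labels, and p-values here therefore describe only library-to-library spread, part of which may be technical. An edgeR quasi-likelihood test compared the populations at 57289 of 96049 peaks, and a peak was called at a Benjamini-Hochberg adjusted p under 0.05 over all peaks tested.

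With the scaling used here, more sites were more accessible in KIT-positive cells than were less accessible, and most of the gains lay at gene starts; neither statement held under every scaling. In KIT-positive over MCAM-medium cells 2631 peaks were higher, 4.59% of those tested, and 1303 were lower, 2.27%. Of these 3934 peaks, 3868 had no overlap between the 3 and 3 libraries, as did 15560 of all 57289 tested peaks (27.2%). Gene-start peaks, those within 1 kb of an annotated start, made up 56.0% of the higher peaks and 14.7% of the lower peaks, beside 33.1% of all tested peaks. Away from gene starts 1158 of 38343 peaks were higher (3.02%) and 1112 lower (2.9%). With 1 gene-start peak taken per gene (the peak with most reads), 1827 of 18914 genes were higher (9.66%) and 191 were lower (1.01%), and the median log2 fold change over all these genes was 0.22.

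Sizes differed with location. At gene starts the higher peaks had a median log2 fold change of 1.0, with median levels of 101 CPM in KIT-positive and 50.9 CPM in MCAM-medium cells. Higher peaks away from starts had a median of 2.45, at 20.1 CPM in KIT-positive and 3.49 CPM in MCAM-medium cells, and lower peaks away from starts a median of -2.14, at 3.72 CPM in KIT-positive and 17.1 CPM in MCAM-medium cells. At gene starts the called sites were thus already open in MCAM-medium cells, while away from starts they had few reads in one of the populations.

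**Figure D1:**
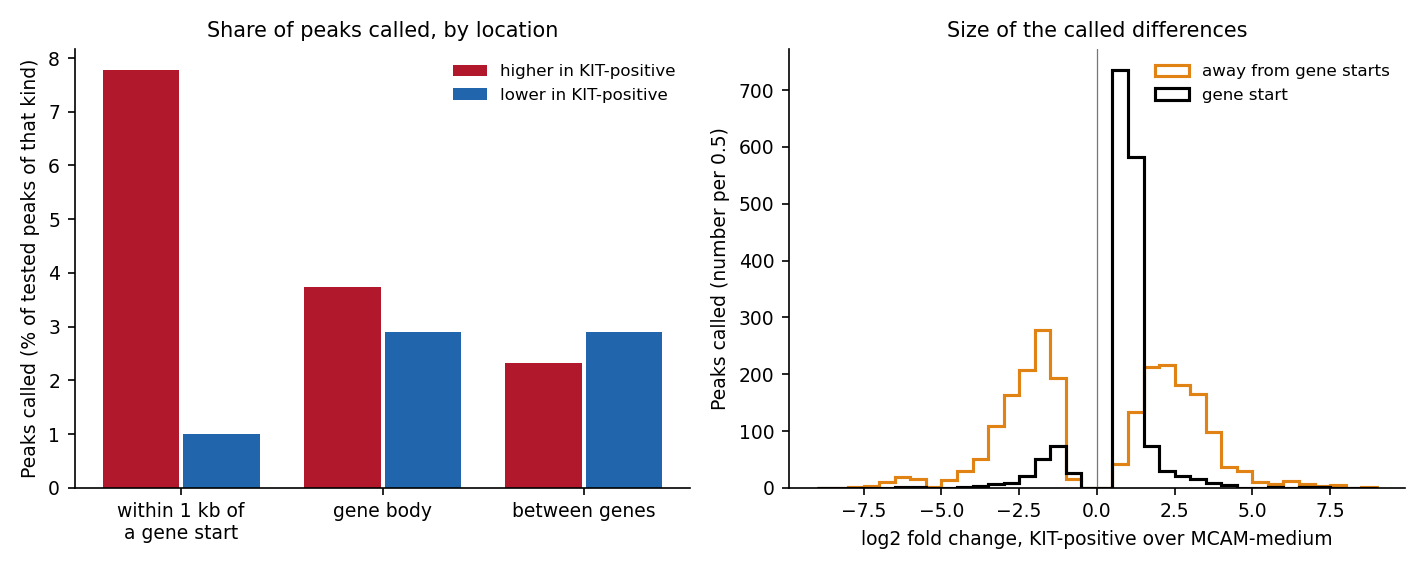
Left, percent of tested peaks called higher (red) or lower (blue) in KIT-positive than in MCAM-medium cells, for peaks within 1 kb of a gene start, in gene bodies and between genes. Right, number of called peaks by log2 fold change in bins of 0.5; called gene-start peaks cluster near 1.0 above 0, while peaks away from starts spread further on both sides.

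This balance, and where the gains lay, rested on how libraries were scaled. The share of all reads in tested peaks that fell in gene-start peaks was 67.8, 62.8 and 65.4% in the KIT-positive libraries, against 58.4, 57.9 and 58.9% in the MCAM-medium libraries. The groups did not overlap (65.3 ± 2.52% against 58.4 ± 0.527%, SD, n = 3 each; exact permutation test, two-sided, p = 0.1, the smallest that 3 against 3 can give). With TMM scaling, used throughout, 66.9% of called peaks were higher; with total counts alone 1682 were higher and 2105 lower (44.4% higher, all peaks shifted by -0.19 on the log2 scale), and with loess offsets against abundance 1663 were higher and 1327 lower (55.6%). At gene starts the split was 877 higher and 441 lower by total counts and 549 and 378 with loess offsets. With loess offsets gene starts thus held 549 of the 1663 higher peaks and gene bodies 684, so the gains no longer lay mostly at gene starts. Total counts gave 514 higher and 842 lower in gene bodies and 291 higher and 822 lower between genes, and loess offsets 684 and 471 in gene bodies and 430 and 478 between genes. Leaving out KIT-positive library 1 left 2159 peaks called, and leaving out MCAM-medium library 1, 2 or 3 left 2144, 2174 or 2430. In bulk libraries of sorted cells, fewer open cells and less open chromatin per cell cannot be told apart.

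Kit itself was more open in the cells sorted for its protein. Its start peak (chr5:75574595-75575816, GRCm38) had 103, 57.6 and 57.4 CPM in the KIT-positive libraries, against 32.1, 32.0 and 40.0 CPM in the MCAM-medium libraries. All 3 KIT-positive values lay above all 3 MCAM-medium values, and library 1 was far above the other two. The log2 fold change was 1.06 ± 0.27 (SE), with an adjusted p of 0.0093 in edgeR's test. The call was lost without KIT-positive library 1 or without MCAM-medium library 1 or 2, where the adjusted p reached 0.14, and it was also just lost with loess offsets. Against deleted MCAM-high cells, at 40.9, 32.8 and 33.9 CPM, the log2 fold change was 1.01 (adjusted p = 0.008).

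The promoters shown here, from RefSeq (GRCm38.p6; a window from upstream of the gene start to just after it, 5′ to 3′ on the gene's strand), are those of Kit, the gene that defines the sort, and of genes whose start peaks were more open, named in the paragraphs that follow. Capitals mark, on either strand, E2F motifs (TTTCCCGC or TTTGGCGC), the CCAAT box (CCAAT), the GC box bound by SP1 (GGGCGG) and the E-box (CACGTG) that MYC and MAX can bind. The windows are chr5:75574737-75575036 (+) for Kit, chr11:98907901-98908200 (+) for Cdc6, chr5:138171217-138171516 (-) for Mcm7, chr2:132253131-132253430 (-) for Pcna, chr5:129019906-129020205 (+) for Ran and chr11:79992856-79993155 (+) for Suz12.
Kit: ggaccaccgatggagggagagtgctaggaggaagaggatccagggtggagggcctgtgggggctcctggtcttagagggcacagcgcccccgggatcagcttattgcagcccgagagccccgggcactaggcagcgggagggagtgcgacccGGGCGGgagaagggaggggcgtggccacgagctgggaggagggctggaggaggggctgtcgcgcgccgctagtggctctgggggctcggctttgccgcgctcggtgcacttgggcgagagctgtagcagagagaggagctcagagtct
Cdc6: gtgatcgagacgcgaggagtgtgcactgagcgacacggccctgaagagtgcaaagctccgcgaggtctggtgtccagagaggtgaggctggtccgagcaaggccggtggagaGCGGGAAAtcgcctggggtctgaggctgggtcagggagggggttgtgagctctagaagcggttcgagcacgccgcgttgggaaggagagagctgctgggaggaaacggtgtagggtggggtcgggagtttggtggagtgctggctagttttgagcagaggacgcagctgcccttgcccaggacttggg
Mcm7: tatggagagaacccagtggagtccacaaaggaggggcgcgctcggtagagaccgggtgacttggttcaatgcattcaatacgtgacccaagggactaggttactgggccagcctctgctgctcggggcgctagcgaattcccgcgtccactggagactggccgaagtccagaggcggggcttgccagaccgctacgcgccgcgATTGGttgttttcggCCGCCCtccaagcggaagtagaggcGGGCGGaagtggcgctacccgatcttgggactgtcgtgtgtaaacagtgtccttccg
Pcna: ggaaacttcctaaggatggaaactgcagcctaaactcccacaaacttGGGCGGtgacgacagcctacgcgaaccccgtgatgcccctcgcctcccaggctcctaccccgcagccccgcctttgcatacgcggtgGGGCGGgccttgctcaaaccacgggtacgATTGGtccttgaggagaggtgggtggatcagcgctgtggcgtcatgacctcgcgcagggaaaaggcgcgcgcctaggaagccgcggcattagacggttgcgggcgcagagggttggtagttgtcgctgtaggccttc
Ran: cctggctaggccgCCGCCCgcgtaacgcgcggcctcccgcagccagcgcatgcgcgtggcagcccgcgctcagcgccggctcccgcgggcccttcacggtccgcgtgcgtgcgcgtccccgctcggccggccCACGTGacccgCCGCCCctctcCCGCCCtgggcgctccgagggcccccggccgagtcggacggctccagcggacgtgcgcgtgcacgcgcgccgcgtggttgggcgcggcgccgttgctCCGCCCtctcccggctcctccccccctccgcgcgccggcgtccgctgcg
Suz12: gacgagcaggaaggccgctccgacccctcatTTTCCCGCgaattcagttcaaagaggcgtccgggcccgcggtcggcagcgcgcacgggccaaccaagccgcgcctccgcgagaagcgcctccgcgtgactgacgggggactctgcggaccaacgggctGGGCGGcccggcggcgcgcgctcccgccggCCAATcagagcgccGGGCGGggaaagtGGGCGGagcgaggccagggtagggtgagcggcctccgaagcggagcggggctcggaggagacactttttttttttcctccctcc
In this window Kit held a single GC box, 98 bases before the start, and none of the other 3 motifs. Cdc6 held an E2F match 138 bases before its start, and Suz12 held an E2F match 219 bases before, a CCAAT box 61 bases before and 3 GC boxes. Mcm7 and Pcna each held 1 CCAAT box, 47 and 87 bases before the start, and 2 GC boxes, with no exact E2F match. Ran held the E-box 118 bases before its start and 4 GC boxes.

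Some of these letters were more frequent among promoters that opened. An E2F motif of either form stood in 6.32% of the 1425 promoters whose overlapping start peak was higher, against 2.98% of the 13001 promoters at any tested start peak and 1.58% of all 32544 promoters in the table. The CCAAT box stood in 52.9% of the promoters called higher against 39.1% of the tested ones, and the GC box in 78.8% against 64.8%. Median GC content was 64.3% against 61.3%, so the GC-rich motifs and base composition moved together, and their separate parts were not tested. Start peaks called higher were also stronger, with a median of 50.9 CPM in MCAM-medium cells against 21.1 CPM for all tested start peaks. They were wider too (median 1024 against 779 bp), and motif shares were not compared at like strength or width. The E-box did not differ in this way, at 10.6% against 10.5%, nor did the ETS motif CCGGAAGT (8.07% against 7.82%), the cyclic AMP element TGACGTCA (3.16% against 3.19%) or the TATA box TATAAA (5.96% against 6.09%). NRF1 (GCGCATGCG) stood in 4.63% against 3.60%, YY1 (AAGATGGC) in 6.32% against 4.24%, and the SOX motif ACAAAG in 10.7% against 13.1%. Among the 118 promoters called lower, the E2F motifs stood in 0.847%, the GC box in 50.0%, the CCAAT box in 55.1% and the SOX motif in 17.8%, with a median GC content of 54.8%. A match is a string of letters and not a bound site.

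The counts over all genes that go with the alternatives given for lists are these. Of the 18914 genes, 574 were higher and 419 lower with loess offsets, and 1097 were higher and 446 lower with total counts. The higher genes numbered 885, 1524 and 1329 without KIT-positive library 1, 2 or 3. Without MCAM-medium library 1, 2 or 3 they numbered 965, 965 and 1133, so that counts over lists fell along with those over all genes.

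DNA replication was the list with the largest share more open in KIT-positive cells. Of 49 measured genes for origin licensing, the replicative helicase and the replication fork, 18 were higher and none lower (36.7%, beside 9.66% of all genes), 48 had a log2 fold change above 0, and the median was 0.67. Their promoters held an E2F motif in 11 of 40 cases (27.5%). The count was 9 with loess offsets and 10 without KIT-positive library 1.

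Cdc6, which loads the MCM helicase onto origins, had 87.8, 64.0 and 52.3 CPM in KIT-positive cells, against 20.1, 14.5 and 34.1 CPM in MCAM-medium cells. The lowest KIT-positive library stood above the highest MCAM-medium library, and the log2 fold change was 1.58 ± 0.31 (adjusted p = 0.00074). Mcm7, a subunit of that helicase, had 169, 194 and 213 CPM in KIT-positive cells, against 82.2, 90.7 and 66.4 CPM in MCAM-medium cells (1.26 ± 0.21, adjusted p = 0.0001); its peak also covers the start of Ap4m1. Pcna, the sliding clamp of DNA polymerase, had 177, 172 and 160 CPM in KIT-positive cells, against 80.9, 57.9 and 68.1 CPM in MCAM-medium cells. Its log2 fold change was 1.29 ± 0.23 (adjusted p = 0.00016). Gmnn encodes geminin, which blocks a second round of licensing, and had 119, 98.8 and 120 CPM in KIT-positive cells, against 48.1, 53.4 and 46.0 CPM in MCAM-medium cells (1.19 ± 0.24, adjusted p = 0.00088). For these 4 genes the populations did not overlap, and each stayed past the threshold whichever of the 6 libraries was dropped, with loess offsets and with total counts. The members that did not pass include Mcm10 (log2 fold change 0.56, adjusted p = 0.29) and Mcm9 (0.41, adjusted p = 0.36).

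Of 43 measured cell cycle regulators 13 were higher and none lower (30.2%, beside 9.66% of all genes), with a median log2 fold change of 0.65. Cdkn2d, an inhibitor of the D-type cyclin kinases, had 358, 352 and 266 CPM in KIT-positive cells, against 176, 144 and 169 CPM in MCAM-medium cells (0.99 ± 0.20, adjusted p = 0.00091). E2f3, a transcription factor of the S-phase genes, had 260, 239 and 214 CPM in KIT-positive cells, against 121, 135 and 135 CPM in MCAM-medium cells (0.87 ± 0.20, adjusted p = 0.0044). The groups did not overlap for either gene, and both calls held without any 1 library but not with loess offsets, where adjusted p was 0.35 for Cdkn2d and 0.54 for E2f3. Cdc25a, the phosphatase that activates CDK2, rose by 1.06 ± 0.29 (adjusted p = 0.018, lost without KIT-positive library 3 or MCAM-medium library 2). Cdc25c, its mitotic relative, rose by 0.91 ± 0.24 (adjusted p = 0.014, lost without KIT-positive library 2 or MCAM-medium library 2 or 3). Ccna1, the cyclin of meiotic cells, had a log2 fold change of -0.20 (adjusted p = 0.75) and Ccnb2, a mitotic cyclin, 0.71 (adjusted p = 0.18). The list's count rested on the libraries and scaling. With loess offsets 1 gene was higher, no larger a share than the 574 of all 18914 genes, and 1 was lower. With total counts 5 were higher and 1 lower. The higher count was 6 without KIT-positive library 1, 4 without KIT-positive library 3, and 6, 3 and 6 without MCAM-medium library 1, 2 or 3.

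**Figure D2:**
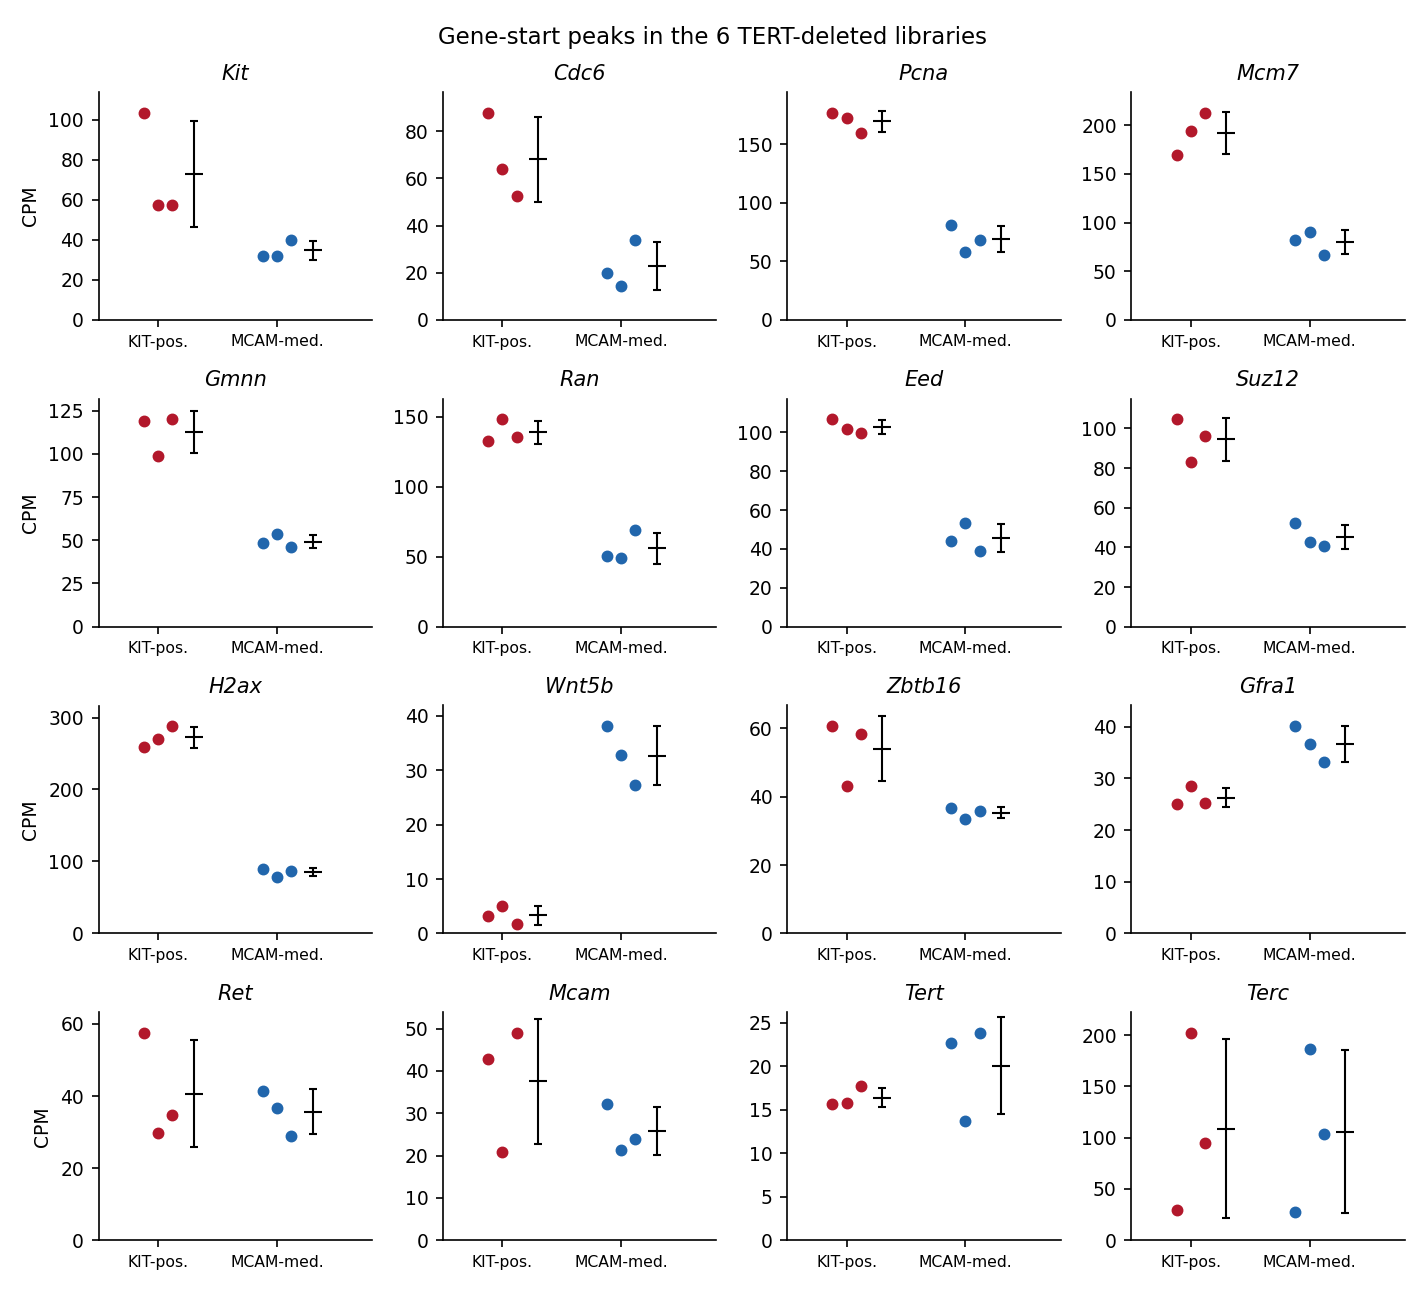
CPM of the gene-start peak of 16 genes in each of the 3 KIT-positive (red) and 3 MCAM-medium (blue) libraries; the black bar and whiskers give the mean and SD, and each axis starts at 0. Kit, Cdc6, Pcna, Mcm7, Gmnn, Ran, Eed, Suz12 and H2ax are higher and Wnt5b is lower in every KIT-positive library, while Ret, Mcam, Tert and Terc overlap. Zbtb16 is also higher and Gfra1 lower in every KIT-positive library, but neither was called.

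Of 40 measured genes of growth and ribosome production, many of them targets of MYC, 12 were higher and none lower (30.0%, beside 9.66%), with a median log2 fold change of 0.66. Of the members that did not pass, 4 had a value below 0, such as Ldha, lactate dehydrogenase A (-1.09, adjusted p = 0.14). Ran, the GTPase of nuclear transport, had 133, 148 and 136 CPM in KIT-positive cells, against 50.8, 48.8 and 69.0 CPM in MCAM-medium cells. The populations were far apart, and the log2 fold change was 1.31 ± 0.23 (adjusted p = 0.00016). Npm1, nucleophosmin of the nucleolus, had 130, 134 and 127 CPM in KIT-positive cells, against 58.8, 59.5 and 73.2 CPM in MCAM-medium cells (1.03 ± 0.22, adjusted p = 0.0024). Nolc1, another nucleolar protein, rose by 1.24 ± 0.31 (adjusted p = 0.0081, lost without KIT-positive library 1 or MCAM-medium library 2), and Nhp2, a core protein of ribosomal RNA-modifying particles and of telomerase, by 1.08 (adjusted p = 0.0067, lost without MCAM-medium library 2). Ncl, nucleolin, had a log2 fold change of 0.57 (adjusted p = 0.054) and Nop56, of box C/D particles, 0.49 (adjusted p = 0.32). The count was 5 with loess offsets, 5 without KIT-positive library 1, and 7 and 4 without MCAM-medium library 1 or 2; Ran held throughout.

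MYC itself did not pass. Its start peak, at 10.4 CPM in KIT-positive and 7.05 CPM in MCAM-medium cells on average, had a log2 fold change of 0.54 (adjusted p = 0.64), and that of Mycn 0.32 (adjusted p = 0.75). Of the 13 genes of the MYC and MAX network 4 were higher (30.8%, beside 9.66%), and all 4 encode partners of MAX that oppose MYC: Mxd3 (1.13, adjusted p = 0.0029), Mxi1 (1.03, adjusted p = 0.019), Mnt (0.77, adjusted p = 0.023) and Mxd1 (0.75, adjusted p = 0.041). Mxd3 held without any 1 library and with loess offsets. The other 3 were each lost without KIT-positive library 1 or 3, without MCAM-medium library 1 and with loess offsets. The count of the list was 1 with loess offsets, 1 without KIT-positive library 1 or 3 or MCAM-medium library 1, and 2 without MCAM-medium library 3.

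Several genes of the switch from mitosis to meiosis opened while Stra8 itself did not pass. Of 39 measured genes 9 were higher and none lower (23.1%, beside 9.66%), with a median log2 fold change of 0.47. Ythdc2, an RNA helicase needed to leave mitotic division, had 63.8, 52.6 and 53.2 CPM in KIT-positive cells, against 26.1, 23.6 and 18.7 CPM in MCAM-medium cells. Its log2 fold change was 1.29 ± 0.28 (adjusted p = 0.0026), and the call held without any 1 library and with loess offsets. Meioc, its partner, had 96.2, 80.4 and 77.7 CPM in KIT-positive cells, against 34.8, 38.1 and 48.5 CPM in MCAM-medium cells (1.07 ± 0.29, adjusted p = 0.018, lost without KIT-positive library 1 or MCAM-medium library 1 or 2). Stag3, a meiotic cohesin, rose by 0.84 ± 0.22 (adjusted p = 0.011, lost without KIT-positive library 1 or MCAM-medium library 2), and Bhmg1, the gene of the Stra8 partner Meiosin, by 0.85 ± 0.24 (adjusted p = 0.021, lost without KIT-positive library 1 or 3 or MCAM-medium library 1 or 3).

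Stra8, which retinoic acid induces at differentiation and at meiotic entry, had 34.5, 63.3 and 19.4 CPM in KIT-positive cells, against 22.1, 21.3 and 27.3 CPM in MCAM-medium cells. The groups overlapped, with KIT-positive library 3 lowest of all 6, and the log2 fold change was 0.76 ± 0.36 (adjusted p = 0.22). Rec8, a meiotic cohesin subunit, had a log2 fold change of 0.66 (adjusted p = 0.17). In the meiotic list 2 genes were higher and 1 lower with loess offsets. The higher count was 2 and 4 without KIT-positive library 1 or 3, and 2, 3 and 4 without MCAM-medium library 1, 2 or 3.

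**Figure D3:**
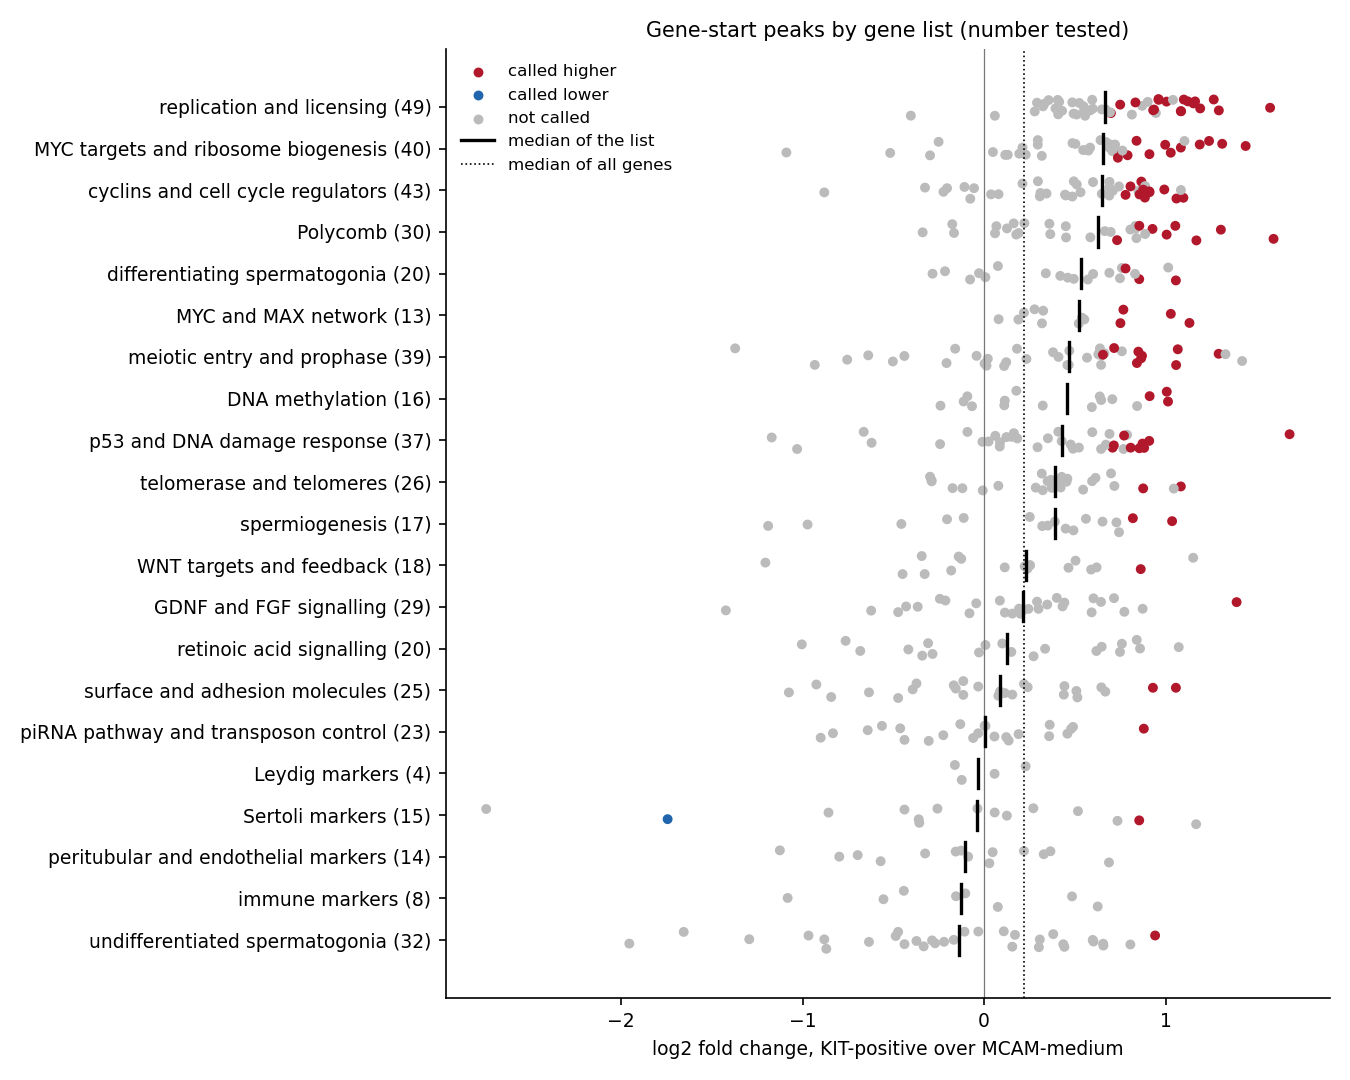
Log2 fold change (KIT-positive over MCAM-medium) of the start peak of each measured gene, by gene list, ordered by the list's median (black bar); red and blue points were called higher and lower, grey points were not called, and the dotted line is the median of all genes, 0.22. Replication, growth and cell cycle genes lie furthest right and genes of undifferentiated spermatogonia furthest left.

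Among chromatin regulators, of 30 measured Polycomb genes 8 were higher and none lower (26.7%, beside 9.66%), with a median log2 fold change of 0.63. Members below 0 included Phf19, an accessory subunit of Polycomb complex 2 (-0.18, adjusted p = 0.84). Eed, the subunit of Polycomb repressive complex 2 that reads trimethylated H3K27, had 107, 102 and 99.6 CPM in KIT-positive cells, against 44.1, 53.4 and 39.2 CPM in MCAM-medium cells. Values within each group were close, and the log2 fold change was 1.17 ± 0.24 (adjusted p = 0.0016). Suz12, a scaffold of the same complex, had 105, 83.0 and 96.3 CPM in KIT-positive cells, against 52.1, 42.7 and 40.9 CPM in MCAM-medium cells (1.05 ± 0.26, adjusted p = 0.007). These 2 calls held without any 1 library and with loess offsets. Rbbp4, a histone-binding subunit shared with other complexes, rose by 0.93 (adjusted p = 0.0061) but not with loess offsets (adjusted p = 0.28). The catalytic subunit Ezh2 had a log2 fold change of 0.70 (adjusted p = 0.07), and the accessory subunit Mtf2 0.83 (adjusted p = 0.1). The count was 4 with loess offsets and 4 without KIT-positive library 1 or MCAM-medium library 1.

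Maintenance DNA methylation genes were among the higher ones and the de novo enzymes were not. Dnmt1, which copies methylation to new strands, had 126, 105 and 122 CPM in KIT-positive cells, against 58.2, 67.1 and 49.4 CPM in MCAM-medium cells (1.01 ± 0.22, adjusted p = 0.0025). Uhrf1, which brings it to hemimethylated DNA, had 167, 129 and 103 CPM in KIT-positive cells, against 72.2, 64.8 and 60.5 CPM in MCAM-medium cells (1.01 ± 0.23, adjusted p = 0.004). Mbd3, of the NuRD complex, rose by 0.91 (adjusted p = 0.0042, lost without KIT-positive library 1). The start peak of Dnmt3a had a log2 fold change of 0.11 (adjusted p = 0.88), as did that of Dnmt3b. Of 16 measured genes 3 were higher (18.8%, beside 9.66%); with loess offsets none was, Dnmt1 at an adjusted p of 0.073 and Uhrf1 at 0.091.

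A peak between genes, with Dnmt3b the nearest at 15665 bases, went up strongly (chr2:153703395-153703849; picked after its values were seen). It had 37.6, 27.9 and 11 CPM in KIT-positive cells, against 3.34, 1.52 and 2.56 CPM in MCAM-medium cells. Every KIT-positive library was above every MCAM-medium one (log2 fold change 3.30 ± 0.61, adjusted p = 0.00039).

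DNA damage genes included the most significant gene-start peak of the lists. It covers the starts of H2ax, the histone variant phosphorylated at double-strand breaks, and of other genes, Dpagt1 among them, which cannot be separated. It had 259, 270 and 288 CPM in KIT-positive cells, against 88.9, 78.5 and 86.9 CPM in MCAM-medium cells (log2 fold change 1.68 ± 0.20, adjusted p = 2e-07), and the call held under every alternative run. Of 37 measured genes of the p53 and DNA damage response 9 were higher and none lower (24.3%, beside 9.66%), with a median log2 fold change of 0.43. The other passing members named by the rule were Brca1, of homologous recombination (0.87, adjusted p = 0.0092), Chek1, the replication checkpoint kinase (0.91, adjusted p = 0.019), and Aen, a p53-induced nuclease (0.88, adjusted p = 0.02). Each of these 3 was lost without MCAM-medium library 1 and with loess offsets. Trp53 had a log2 fold change of 0.43 (adjusted p = 0.4) and Trp63 -0.66 (adjusted p = 0.67). With loess offsets 1 gene of the list was higher, about the share of all genes, and 1 was lower. With total counts 2 were higher and 1 lower. The higher count was 3, 5 and 5 without KIT-positive library 1, 2 or 3, and 2, 2 and 3 without MCAM-medium library 1, 2 or 3.

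Neither Tert nor Terc was called. The start peak of Tert, the gene deleted in these mice, had 15.7, 15.8 and 17.7 CPM in KIT-positive cells, against 22.7, 13.7 and 23.8 CPM in MCAM-medium cells (log2 fold change -0.29 ± 0.35, adjusted p = 0.71). This peak reports the promoter, and the labels do not say which part of the gene was removed, so it does not check the deletion. Terc, the RNA template of telomerase, had 29.3, 202 and 94.6 CPM in KIT-positive cells, against 27.4, 186 and 104 CPM in MCAM-medium cells (0.08 ± 0.52, adjusted p = 0.96). Of 26 measured telomere genes 2 were higher (7.69%, near the 9.66% of all genes): Nhp2, named above, and Ten1, of the CST complex that binds telomere ends (0.88, adjusted p = 0.05, lost in each of the 6 fits without 1 library).

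Of 32 measured genes that mark undifferentiated spermatogonia 1 was higher and none lower (3.12%, beside 9.66%). With total counts none was higher and 2 were lower, and with loess offsets none was higher and 1 was lower. The median log2 fold change was -0.14, against 0.22 for all genes. In the control libraries the list's median was 0.07, against 0.23 for all genes, so its sign differed there. In the deleted libraries the list's median was below 0 under every scaling tried. The medians of the immune (-0.13) and peritubular and endothelial (-0.11) lists lay close to it. With loess offsets it was -0.06, above those of the peritubular and endothelial (-0.16) and piRNA (-0.19) lists. The difference from other genes was not tested. The gene called higher with TMM scaling was Sox3, an X-linked regulator of early progenitors. It had 101, 76.6 and 85.3 CPM in KIT-positive cells, against 43.5, 61.0 and 31.5 CPM in MCAM-medium cells (0.94 ± 0.29, adjusted p = 0.039). That call was lost without MCAM-medium library 1 or 3 or any 1 KIT-positive library. Zbtb16, encoding PLZF, had 60.6, 43.1 and 58.3 CPM in KIT-positive cells, against 36.8, 33.5 and 35.8 CPM in MCAM-medium cells (0.60 ± 0.26, adjusted p = 0.17). The start of Gfra1, the GDNF co-receptor, had 25.1, 28.5 and 25.3 CPM in KIT-positive cells, against 40.1, 36.6 and 33.2 CPM in MCAM-medium cells. Its log2 fold change of -0.47 ± 0.33 did not pass (adjusted p = 0.44). The groups did not overlap for Zbtb16 or Gfra1, which went in opposite directions, and neither was called.

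Away from starts, of 132 tested peaks whose nearest or host gene was on this list, 6 were higher (beside 3.02% of all such peaks) and 4 lower (beside 2.9%), shares near the background. The peaks described here were picked after their values were seen, and the gene is the nearest or host gene, with no evidence that it is the target. A peak 4441 bases from Nanos2, the RNA-binding protein that keeps stem cells undifferentiated (chr7:18982523-18983083), had 2.09, 0.633 and 2.53 CPM in KIT-positive cells, against 17.4, 11.4 and 19.6 CPM in MCAM-medium cells. The signal was near the floor in all 3 KIT-positive libraries (log2 fold change -3.23 ± 0.61, adjusted p = 0.00049). Peaks nearest Egr4, a GDNF-responsive transcription factor gene (-2.83 ± 0.53, adjusted p = 0.00047), and Foxo1, a transcription factor of spermatogonial stem cells (-2.57 ± 0.54, adjusted p = 0.0016), were also lower. These 3 calls held without any 1 library. In the body of Gfra1 a peak had 4.18, 1.27 and 0.844 CPM in KIT-positive cells, against 12.0, 20.6 and 1.70 CPM in MCAM-medium cells. MCAM-medium library 3 fell within the KIT-positive range, and the call (-2.53 ± 0.71, adjusted p = 0.019) was lost without KIT-positive library 2 or 3 or MCAM-medium library 1 or 2. Of the 6 higher peaks, 2 lay nearest Eomes, a transcription factor of stem cells (3.30 ± 0.67, adjusted p = 0.0012, and 1.52 ± 0.45, adjusted p = 0.029), and 1 each nearest or in Glis3 (2.35 ± 0.59, adjusted p = 0.0087), Id4 (1.62 ± 0.45, adjusted p = 0.018), Ccnd2 (1.40 ± 0.35, adjusted p = 0.0078) and Cdh1 (1.18 ± 0.37, adjusted p = 0.044). The first of the Eomes peaks held without any 1 library and the other 5 did not.

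For the GDNF and FGF pathway 1 of 29 start peaks was higher (3.45%, beside 9.66%), that of Mapk3, the kinase ERK1 (1.39 ± 0.44, adjusted p = 0.044, lost without KIT-positive library 1 or 3 or MCAM-medium library 1 or 2). Ret, the GDNF receptor kinase, had 57.5, 29.8 and 34.6 CPM in KIT-positive cells, against 41.4, 36.6 and 29.0 CPM in MCAM-medium cells, with overlapping groups (0.16 ± 0.29, adjusted p = 0.82). Away from starts 2 of 104 peaks of the pathway's genes were higher and 6 lower (beside 3.02% and 2.9% of all such peaks). Among the lower ones, a peak in Spred3, an inhibitor of the RAS and MAPK cascade (chr7:29162570-29163070), was picked after its values were seen. It had 4.18, 3.17 and 4.22 CPM in KIT-positive cells, against 24.1, 16.0 and 22.1 CPM in MCAM-medium cells (-2.43 ± 0.48, adjusted p = 0.00081).

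Beside Kit, few genes of differentiation passed. Of 20 measured genes 3 were higher (15.0%, beside 9.66%), and the median log2 fold change was 0.53. The other two were Ccna2, the S-phase cyclin, and Dmrt1, a transcription factor of spermatogonia that Sertoli cells also express. Dmrt1 had 69.0, 88.0 and 83.6 CPM in KIT-positive cells, against 42.8, 57.2 and 33.2 CPM in MCAM-medium cells (0.85 ± 0.25, adjusted p = 0.029, lost without KIT-positive library 2 or 3 or MCAM-medium library 1 or 3). Dmrtb1, a transcription factor that coordinates differentiation with meiotic entry, had a log2 fold change of 1.01 (adjusted p = 0.066). The count of the list was 0 with loess offsets, 1 without KIT-positive library 3, and 0, 1 and 1 without MCAM-medium library 1, 2 or 3.

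Of the 20 measured genes of retinoic acid signalling none passed at the start, and the median log2 fold change was 0.12 (-0.07 with total counts). Aldh1a2, which makes retinoic acid, had a log2 fold change of 0.62 (adjusted p = 0.19), and Aldh1a1, of the same family, -1.0 (adjusted p = 0.47). Of 23 piRNA pathway genes 1 was higher (4.35%, beside 9.66%), Tdrd3, a Tudor-domain gene (0.88, adjusted p = 0.018, lost without KIT-positive library 3 or MCAM-medium library 2 or 3 and with loess offsets). The start of Piwil1, encoding the PIWI protein MIWI, had a log2 fold change of -0.83 (adjusted p = 0.23) and that of Piwil4, encoding MIWI2, -0.64 (adjusted p = 0.45).

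Among surface molecules 2 of 25 start peaks were higher (8.00%, beside 9.66%): Kit and Cdh2, encoding N-cadherin (0.93, adjusted p = 0.0069, lost without KIT-positive library 1 and with loess offsets). Mcam, whose protein was held at the same medium gate in both populations, had 42.9, 20.9 and 49.0 CPM in KIT-positive cells, against 32.1, 21.3 and 23.8 CPM in MCAM-medium cells. The groups overlapped (0.51 ± 0.32, adjusted p = 0.38). Thy1, a surface marker of undifferentiated spermatogonia, had a log2 fold change of -0.63 (adjusted p = 0.39). Away from starts 2 of 149 peaks of these genes were higher and 7 lower (beside 3.02% and 2.9% of all such peaks).

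A peak 414 bases from the start of Wnt5b, a ligand of non-canonical WNT signalling (chr6:119448375-119448972), had 3.14, 5.07 and 1.69 CPM in KIT-positive cells, against 38.1, 32.8 and 27.3 CPM in MCAM-medium cells. No KIT-positive library came near the MCAM-medium range, and the log2 fold change was -3.22 ± 0.48 (adjusted p = 1.9e-05). Deleted MCAM-high cells had 20.9, 15.3 and 17.8 CPM. In the body of Ror2, a receptor for WNT5A, a peak picked after its values were seen went the other way, with 28.2, 26.6 and 31.2 CPM in KIT-positive cells, against 2.01, 1.52 and 1.70 CPM in MCAM-medium cells (3.97 ± 0.61, adjusted p = 3.3e-05). Of 18 measured start peaks of WNT targets and feedback genes 1 was higher (5.56%, beside 9.66%), Znrf3, an inhibitor of WNT receptors (0.86, adjusted p = 0.048, lost in 5 of 6 fits without 1 library). Axin2, a target of canonical signalling, had a log2 fold change of 0.46 (adjusted p = 0.41), and Lef1, a transcription factor of the pathway, -1.20 (adjusted p = 0.088).

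Among the sites that differed most were peaks in gene bodies with no reads in one population. A peak in Ranbp1, which regulates RAN (chr16:18245265-18245523), had 20.9, 19.6 and 13.5 CPM in KIT-positive cells and 0 CPM in all 3 MCAM-medium libraries, at least 23.9-fold higher against a floor of 3 counts over the group (67 reads in KIT-positive and 0 in MCAM-medium libraries, adjusted p = 0.00016). It was not detected in MCAM-medium libraries at this depth.

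In the other direction, a peak in Pter had 0 CPM in all 3 KIT-positive libraries, against 12.7, 16.0 and 5.11 CPM in MCAM-medium cells, at least 14.3-fold lower (0 reads in KIT-positive and 46 in MCAM-medium libraries, adjusted p = 0.0035). A peak in Gsta3, a glutathione transferase gene (chr1:21252349-21252988), had 0, 1.27 and 1.69 CPM in KIT-positive cells, against 26.7, 33.5 and 22.1 CPM in MCAM-medium cells (-4.58 ± 0.57, adjusted p = 5.3e-07). Its MCAM-high values, at 18.1, 30.0 and 24.6 CPM, lay close to those of MCAM-medium cells. The calls of Ranbp1, Pter and Gsta3 held without any 1 library.

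At gene starts, a peak 770 bases from the start of C1ql1, a secreted protein of the C1q family (chr11:102940034-102940615), had 76.3, 70.3 and 54.0 CPM in KIT-positive cells, against 8.69, 0.762 and 6.81 CPM in MCAM-medium cells (3.59 ± 0.45, adjusted p = 8.1e-07). Eppin, a protease inhibitor gene of the male tract, had a peak 470 bases from its start with 32.4, 20.3 and 21.1 CPM in KIT-positive cells, against 0, 3.05 and 0 CPM in MCAM-medium cells (4.49 ± 0.76, adjusted p = 0.00012). The start of Trim12c, a TRIM family gene, was lower, with 8.36, 14.6 and 9.29 CPM in KIT-positive cells, against 52.1, 42.7 and 42.6 CPM in MCAM-medium cells (-2.04 ± 0.34, adjusted p = 0.0001). The populations were far apart at all 3 sites.

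A few distal sites near germ cell and cell cycle genes, also picked after their values were seen, were lower. A peak in the body of Rb1, the retinoblastoma gene that restrains E2F, had 2.09, 5.07 and 4.22 CPM in KIT-positive cells, against 41.4, 41.9 and 37.5 CPM in MCAM-medium cells (-3.32 ± 0.64, adjusted p = 0.00072). Deleted MCAM-high cells had 9.51, 11.8 and 11.9 CPM there, between the other two populations. A peak 100835 bases from Dazl, an RNA-binding protein of germ cells, had 2.09, 7.60 and 7.60 CPM in KIT-positive cells, against 39.4, 37.4 and 30.7 CPM in MCAM-medium cells (-2.55 ± 0.41, adjusted p = 7e-05), while the start peak of Dazl was higher (0.72 ± 0.22, adjusted p = 0.039).

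Chromosomes differed in their share of calls. On chromosome 11, 8.34% of tested peaks were higher and 1.15% lower, and on chromosome 19, 7.22% and 1.12%; among gene-start peaks alone 11.9% and 11.3% were higher on these chromosomes, beside 7.77% of all gene-start peaks. On chromosome 14, 2.83% were higher and 3.73% lower. On the X, 26 of 1262 peaks were higher (2.06%) and 47 lower (3.72%), although gene-start peaks make up 50.0% of its peaks. The X took 1.59, 1.63 and 1.61% of reads in KIT-positive libraries, against 1.89, 1.97 and 1.85% in MCAM-medium libraries, with no overlap (exact permutation test, two-sided, p = 0.1, the smallest possible). An X-linked start that passed was Xlr3b, of a testis-expressed family with near-identical copies whose reads the counting could split (-2.17 ± 0.47, adjusted p = 0.0022).

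The control libraries, which share none with the deleted ones, were compared in the same fit. In control KIT-positive over control MCAM-medium cells 3267 peaks were higher, 5.7% of those tested, and 2075 lower, 3.62%. Among 2631 peaks gained in deleted KIT-positive cells, 1627 were also called higher in controls (61.8% of the deleted and 49.8% of the control list). Of the 1303 lower peaks, 573 were also called lower (44.0% and 27.6%), and none was called in the opposite direction. The peaks higher in deleted cells had a median log2 fold change of 1.27 there and 1.19 in controls, and those lower -2.03 and -1.49; the deleted value was the one used to choose them. Across all 57289 peaks the fold changes correlated at r = 0.634, across peaks, which are not independent replicates.

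Whether the step differed with the genotype was tested as the difference of the fold changes. No peak passed (0.0% of those tested, smallest adjusted p = 0.99992), with 2372 at an unadjusted p under 0.05 in edgeR; DESeq2 also gave 0, with 2370. Kit had a log2 fold change of 1.06 in deleted and 1.42 in control cells, Pcna 1.29 and 1.0, and H2ax 1.68 and 1.53. Eed had 1.17 in deleted cells and 0.46 in controls, where it did not pass (adjusted p = 0.31), a difference the test did not call. With 2 control MCAM-medium libraries the absence of a call does not show that the genotypes act alike.

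**Figure D4:**
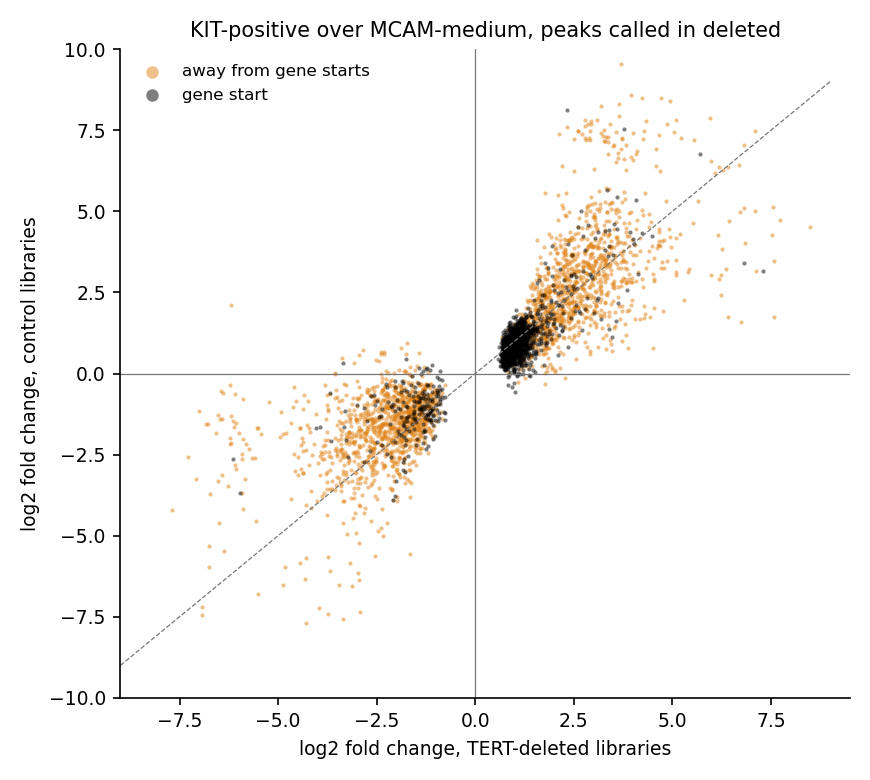
Log2 fold change of KIT-positive over MCAM-medium cells in deleted (horizontal) and control (vertical) libraries for the 3934 peaks called in the deleted comparison, 1 point a peak, black at gene starts and orange away from them; the dashed line marks equal values. Of the higher peaks 99.4% and of the lower peaks 97.1% have the same sign in controls, as do 71.9% of all tested peaks.

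The other populations place these sites along the sequence of cells. At the higher gene-start peaks the median level was 6.58 log2 CPM in deleted KIT-positive cells, against 5.60 in deleted MCAM-medium and 5.57 in deleted MCAM-high cells, and 6.02 in later germ cells. Higher peaks away from starts had 4.31 in KIT-positive cells, against 2.05 in MCAM-medium and 2.02 in MCAM-high cells, and 1.91 in later germ cells. Lower peaks away from starts had 2.12 in KIT-positive cells, against 4.05 in MCAM-medium and 3.74 in MCAM-high cells, and 2.36 in later germ cells. Both distal sets were thus low in the later libraries, but so were all tested peaks away from starts, at 2.44. From control MCAM-medium to later cells, the median change was 0.077 at the distal sites gained in KIT-positive cells. It was -1.42 at the distal sites lost and -0.50 at all tested peaks away from starts. The later libraries came from heterozygous mice, all 22 libraries were put on 1 TMM scale for these levels, and these medians carry no test.

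**Figure D5:**
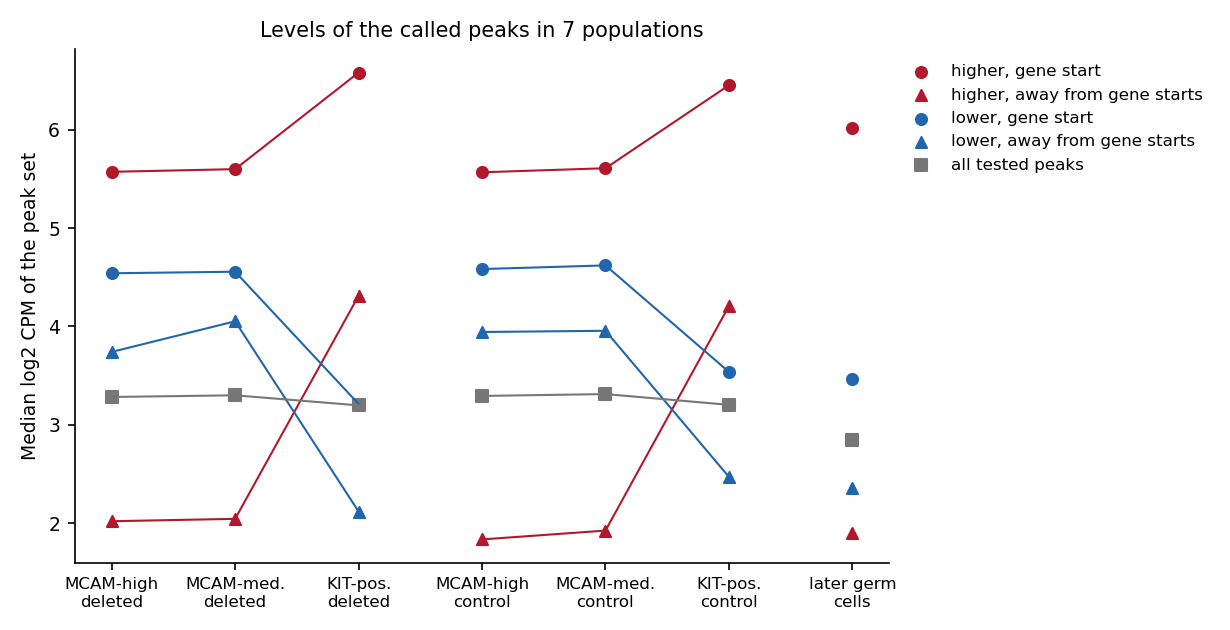
Median log2 CPM, in each sorted population, of peaks called higher (red) or lower (blue) in deleted KIT-positive cells, at gene starts (circles) and away from them (triangles), and of all tested peaks (grey squares); lines join the spermatogonial populations of 1 genotype. Higher peaks away from starts stand at 4.31 in deleted KIT-positive cells and at 1.91 in later germ cells, and lower ones at 2.12 and 2.36.

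Markers of other testis cells were summed in both populations, and the ranges overlapped for all 4 lists. The summed start-peak level of the 15 measured Sertoli genes was 265 to 308 CPM in KIT-positive libraries, against 233 to 284 CPM in MCAM-medium libraries. It was 123 to 141 against 114 to 155 CPM for 4 Leydig genes, 298 to 334 against 332 to 356 CPM for 14 peritubular and endothelial genes, and 86.1 to 122 against 107 to 142 CPM for the immune genes. No listed start was at 0 in all 6 libraries, and start peaks of defining genes such as Insl3, Star and Ptprc are not in the table. Of these 4 lists the start of Dmrt1, a Sertoli gene too, was called higher. Spermiogenesis genes summed to 770 to 1072 CPM in KIT-positive against 615 to 670 CPM in MCAM-medium libraries, with 2 of 17 called higher (11.8%, beside 9.66%): Crem, a transcription factor of spermatids (1.04, adjusted p = 0.0024), and Rfx2, another (0.82, adjusted p = 0.035). The part of other cells in these results was not tested.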

How the data were processed

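Tn5-tagmented nuclei of sorted cells were sequenced. The authors deposited 1 table of raw read counts for 96049 peaks in the 22 libraries, with GRCm38 coordinates. FastQC, Bowtie2, SAMtools and Picard are named per the submitters' processing notes; the peak caller and the counting are not given in the sources used here. Counts were tested as deposited with edgeR 4.0.16 (R 4.3.3): TMM scaling, filterByExpr, and a quasi-likelihood fit of group means over the 17 spermatogonial libraries, which share 1 estimate of spread (11 residual degrees of freedom). The Benjamini-Hochberg threshold was 0.05 over all tested peaks. Every SE and adjusted p for a peak comes from this test, and CPM are TMM-scaled; levels set beside later germ cells come from a TMM scaling of all 22 libraries. Replicate counts limit precision; a fold against 0 used a floor of 3 counts, which covers counting error only.

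A gene-start peak lay within 1000 bp of a RefSeq start (GRCm38.p6, 27025 genes) or, for 7608 genes with no promoter entry, of either gene end; of 547 listed genes, 142 had none. Each gene took its gene-start peak with most reads. Members and lists were chosen with earlier results of these data known. Named peaks were the 8 higher and 8 lower with the largest fold change at 10 CPM or more, the 6 and 6 among gene starts at 20 CPM or more, up to 4 passing members of each list in each direction with the smallest p and 2 not passing, and Kit, Mcam, Tert and Terc; others are said to be picked after their values were seen, as were Ccna2 and the start of Dazl. Alternatives were other scalings (RLE, total counts, loess offsets from edgeR with limma 3.58.1), no filter, DESeq2 1.42.0, fewer libraries, a replicate block and leaving out libraries. The statistics were tested on simulated data. Some named items are not reported here.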

Additional observations from a re-analysis of the deposited data

How the results depend on the processing

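The number of peaks called, 3934, ranged from 2144 to 2848 when 1 deleted library was left out. Of 485 tested list genes 86 were higher and 1 lower, beside 1827 and 191 of all 18914 genes. The total of called list genes, 87, ranged from 38 to 67 in the same fits, and the higher genes among all from 885 to 1524. All deleted libraries of a number (KIT-positive, MCAM-medium and MCAM-high) were also left out together, a choice made after seeing the data. This left 888 (number 1), 1007 (number 2) and 1641 (number 3) peaks and 10, 17 and 29 list genes called. Counts over all genes are not given for these fits. Called list genes fell to 57 with total counts (48 higher, 9 lower, beside 1097 and 446 of all genes). They fell to 30 with loess offsets (24 higher, 6 lower, beside 574 and 419 of all genes). All peaks gave 3898 with RLE factors, 3984 with no filter, 4043 with DESeq2, 4721 with the 6 libraries alone and 5175 with the 9 deleted libraries. The genotype difference gave 0 under each alternative run, with 1865 to 4871 at an unadjusted p under 0.05. None of 71 named called peaks reversed; 29 missed the threshold with loess offsets and 12 with total counts. Across peaks, deviations from the group mean hardly correlated between KIT-positive and MCAM-medium libraries of the same number (-0.0166, 0.0531 and -0.0196). This cannot show that libraries of the same number lack a shared source, and the Terc start peak did follow the number. With the replicate block 2639 peaks were called over 17 libraries (2632 shared with the 3934) and 4405 over 6. List genes called were 58 and 101, and over 17 libraries 1279 of all 18914 genes were higher and 119 lower. The block gave 0 for the genotype difference. Causes were not tested. Peaks with few reads limit what this depth can show.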

Other observations

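Some genes held several called peaks, listed here after their values were seen and because they held several. Of all tested gene-body peaks 3.73% were higher and 2.89% lower. Camta1, a transcription activator gene, had 4 of 38 tested peaks in its body higher in KIT-positive than in MCAM-medium cells (log2 fold changes 1.66 to 3.05), all 4 also called in controls. Kdm6b, an H3K27 demethylase gene, had 3 of 6 higher (0.94 to 1.40), and Pacsin1 and Tspan9 each had 3 of 7. Mbp had 3 of 6 and Tns1 3 of 10 higher, and each also had 1 peak called lower. Usp29, in an imprinted region, had 4 of 12 lower (-2.57 to -1.10), 3 of them also called in controls.

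The Terc start peak followed the library number more than the population. Libraries 1, 2 and 3 had 29.3, 202 and 94.6 CPM in deleted KIT-positive cells, 34.2, 527 and 195 CPM in deleted MCAM-high cells, and 27.4, 186 and 104 CPM in deleted MCAM-medium cells. The order of the 3 numbers was the same in each population, and its cause was not tested.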
